A study of Mus musculus with 6 samples.

Results

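Germ cell and meiosis genes were followed in mouse embryonic stem cells (mESCs) with and without forced *HOXA13* expression. The 10 genes *Prdm1*, *Tfap2c*, *Dazl*, *Ddx4*, *Sycp1*, *Sycp3*, *Mael*, *Slc25a31*, *Hormad1* and *Tex19.1* were chosen by symbol from the 24393 features of the count tables, and all 10 were among the 13846 genes tested. They are often discussed as genes that DNA methylation silences, but DNA methylation was not measured in these libraries, so that they are called germ cell genes here. RNA was sequenced from 3 control and 3 *HOXA13*-overexpressing cultures of non-differentiated KH2 mESCs, a line that the labels give as strain C57/BL/6 with genotype control or *HOXA13* overexpression. Human *HOXA13* with a FLAG tag had been targeted into KH2 cells so that doxycycline controls it, and correctly targeted clones were selected with hygromycin. The labels state that no treatment was applied. The methods describe doxycycline for checking induction in targeted clones, and do not state whether the sequenced non-differentiated cultures of either group received it. An effect of doxycycline on the overexpressing group alone could not be told apart from an effect of *HOXA13*. All 6 cultures were kept in medium with serum and LIF on irradiated 3T3-Swiss albino mouse fibroblasts. The methods call the 3 cultures of a group biological replicates and do not say whether each is a separate clone, so that p-values measure the spread between these cultures. The clones of the overexpressing group and the presence of the transgene cannot be told apart.

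Primordial germ cells, the embryonic precursors of sperm and eggs, are set aside by the transcription factors PRDM1, PRDM14 and TFAP2C. Later germ cells switch on RNA-binding proteins such as DAZL and DDX4, then the proteins that pair chromosomes in meiosis and the small-RNA machinery that holds transposons in check. In somatic and pluripotent cells many of these genes are kept low by CpG methylation of their promoters, by histone H3 lysine 9 methylation, and by PRC1.6, a Polycomb complex that reaches DNA through MGA with MAX at E-boxes and through E2F6 at E2F sites.

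The transgene, listed under its human Ensembl identifier ENSG00000106031, was counted 6, 0 and 0 times in control libraries 1 to 3 and 4298, 4177 and 2881 times in *HOXA13* libraries 1 to 3, matching the labels. Total counts were 14608681 to 21766589 in control libraries and 13494135 to 20374341 in *HOXA13* libraries. Levels are given as CPM, counts scaled to a common library size with edgeR's TMM factors. A library's floor of 3 counts corresponded to 0.134 to 0.227 CPM, a limit that covers counting error only. The control libraries differed more from one another than the *HOXA13* libraries did (chi-square per degree of freedom 12.7 to 34.2 against 1.89 to 6.03). Summed mesendoderm markers were 437, 40.2 and 189 CPM in control libraries 1 to 3 and 20.6 to 23.4 CPM in *HOXA13* libraries. The part of this marker difference in the results on the germ cell genes was not tested, and each result was also computed without each library in turn. The stem cell label was checked with *Pou5f1*, which lay at 633 to 783 CPM in control and 685 to 694 CPM in *HOXA13* libraries. Of the 10 pluripotent cell markers, which include *Pou5f1*, 5 were higher and 1 was lower (named below).

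Promoter sequence is shown first, because E-boxes and E2F sites are the letters through which PRC1.6 is known to reach germ cell genes. RefSeq windows of 250 bases before to 50 bases after the annotated start were at hand for 9 of the 10 genes in build GRCm38.p6, and *Tfap2c* had none. The 250 bases before the start are printed 5′ to 3′ on the strand of the gene for 2 genes that rose in *HOXA13* cells and hold an E-box (*Ddx4*, chr13:112652311-112652560, minus strand, and *Sycp1*, chr3:102936101-102936350, minus strand), for 2 genes with 2 E-boxes and an E2F site that did not pass the threshold (*Sycp3*, chr10:88459337-88459586, plus strand, and *Hormad1*, chr3:95559427-95559676, plus strand), and for *Tex19.1* (chr11:121145893-121146142, plus strand), which rose and has neither. Capitals mark the E-box letters CACGTG and the E2F letters TTCCCGC or GCGGGAA.
Ddx4: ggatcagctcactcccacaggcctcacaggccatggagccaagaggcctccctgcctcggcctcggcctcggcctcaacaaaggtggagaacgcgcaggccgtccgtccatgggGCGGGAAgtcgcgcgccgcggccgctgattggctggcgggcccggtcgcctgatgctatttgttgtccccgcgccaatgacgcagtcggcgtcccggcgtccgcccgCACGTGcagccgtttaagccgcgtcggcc
Sycp1: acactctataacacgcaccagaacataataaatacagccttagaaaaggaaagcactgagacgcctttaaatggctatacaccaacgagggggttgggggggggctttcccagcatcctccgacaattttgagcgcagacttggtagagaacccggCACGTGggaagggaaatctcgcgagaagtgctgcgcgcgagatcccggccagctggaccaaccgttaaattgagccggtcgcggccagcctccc
Sycp3: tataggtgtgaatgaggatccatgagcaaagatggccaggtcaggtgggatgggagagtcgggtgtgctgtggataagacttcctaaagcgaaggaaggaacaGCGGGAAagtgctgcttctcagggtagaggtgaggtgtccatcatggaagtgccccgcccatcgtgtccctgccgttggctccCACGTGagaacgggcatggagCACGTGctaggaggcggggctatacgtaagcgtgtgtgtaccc
Hormad1: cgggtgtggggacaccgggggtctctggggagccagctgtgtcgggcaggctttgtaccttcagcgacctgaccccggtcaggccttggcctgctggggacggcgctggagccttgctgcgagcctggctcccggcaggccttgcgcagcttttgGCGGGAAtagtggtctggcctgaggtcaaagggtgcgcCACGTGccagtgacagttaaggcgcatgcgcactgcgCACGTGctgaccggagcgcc
Tex19.1: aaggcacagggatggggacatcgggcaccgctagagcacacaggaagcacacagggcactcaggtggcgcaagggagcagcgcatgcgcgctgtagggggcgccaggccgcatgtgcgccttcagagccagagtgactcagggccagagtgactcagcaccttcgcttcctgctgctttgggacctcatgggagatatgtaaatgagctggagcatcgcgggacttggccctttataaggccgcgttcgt

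An E-box (CACGTG, the same on both strands) was found in 6 of the 9 windows (66.7%), against 7.24% of the 27025 RefSeq windows of all genes and 22.2% of 45 windows of other germ cell genes. It began 29 bases before the start in *Ddx4*, 94 in *Sycp1*, 64 and 43 in *Sycp3*, 223 in *Mael*, 93 in *Slc25a31*, and 57 and 20 in *Hormad1*. An E2F site (TTCCCGC or its reverse complement GCGGGAA) was found in 4 of the 9 (44.4%), against 4.66% of all windows and 9 of the 45 of other germ cell genes. It began 136 bases before the start in *Ddx4*, 147 in *Sycp3* and 95 in *Hormad1*, and 20 bases after the start in *Slc25a31*. All 4 genes with an E2F site also held an E-box, a pair held by 0.463% of all windows and by 2 of the 45 of other germ cell genes (4.44%). In the 4 genes no match overlapped another. Of the 6 genes with an E-box 2 rose (*Ddx4* and *Sycp1*), and of the 3 without 2 rose (*Prdm1* and *Tex19.1*), where 14.4% of all tested genes rose. An AP-2 site (GCCNNNGGC, the family of TFAP2C) was found in 1 of the 9, *Sycp3*, against 16.5% of all windows and 24.4% of those of other germ cell genes. The HOXA13 letters CCAATAAA or CTCGTAAA, read on both strands, were in none of the 9 windows, against 1.20% and 0.148% of all windows, which says only that they are not in these windows. The windows held a median of 22 CpG dinucleotides (15 in *Sycp3* to 38 in *Ddx4*), compared with a median of 17 in other germ cell genes and 7 in all genes. In the 10963 of 13846 tested genes that had a window the median was 21. Of these windows 10.2% held an E-box, 8.76% an E2F site, 0.867% both and 25.4% an AP-2 site. Since the 10963 are 79.2% of the tested genes, under the 80% required, these comparisons are void and only the values are given. Such matches are descriptions of sequence, and binding and methylation were not measured.

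**Figure D1:**
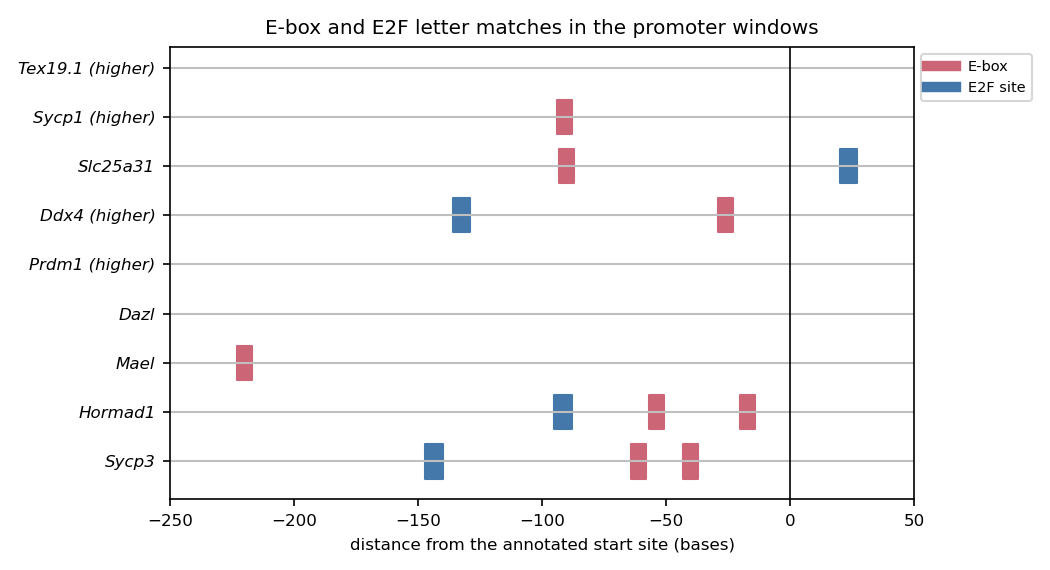
Matches to the E-box and E2F letters in the promoter windows of 9 germ cell genes, ordered by log2 fold change, with the distance in bases from the annotated start site (vertical line) on the x axis. E-boxes stand in 6 of the 9 windows and E2F sites in 4, and the windows of *Tex19.1*, *Prdm1* and *Dazl* hold neither.

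To ask whether germ cell genes respond to *HOXA13*, each gene was compared between the 3 control and the 3 *HOXA13* libraries. Of the 10 genes, 5 rose and 0 fell at an adjusted p under 0.05 (edgeR's quasi-likelihood test, Benjamini-Hochberg adjustment over all genes tested), and the remaining 5 did not pass. At an unadjusted p under 0.05 the counts were 6 and 0, and DESeq2 and limma-voom each gave 5 and 0. Among all 13846 tested genes 27.7% passed, with 14.4% higher and 13.3% lower. The genes that rose were *Tfap2c*, *Tex19.1*, *Sycp1*, *Ddx4* and *Prdm1*, by 1.61-fold to 4.14-fold. The *HOXA13* libraries lay above all control libraries in 7 of the 10 genes, against 23.5% of all tested genes, and below them in 1, against 22.2%. The median log2 fold change of the 10 genes was 0.73, and that of all tested genes was 3.73e-05. In bulk RNA, fewer cells of a type and less RNA per cell cannot be told apart, so that a rise can stem from more cells with the transcript or from more transcript per cell.

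**Figure D2:**
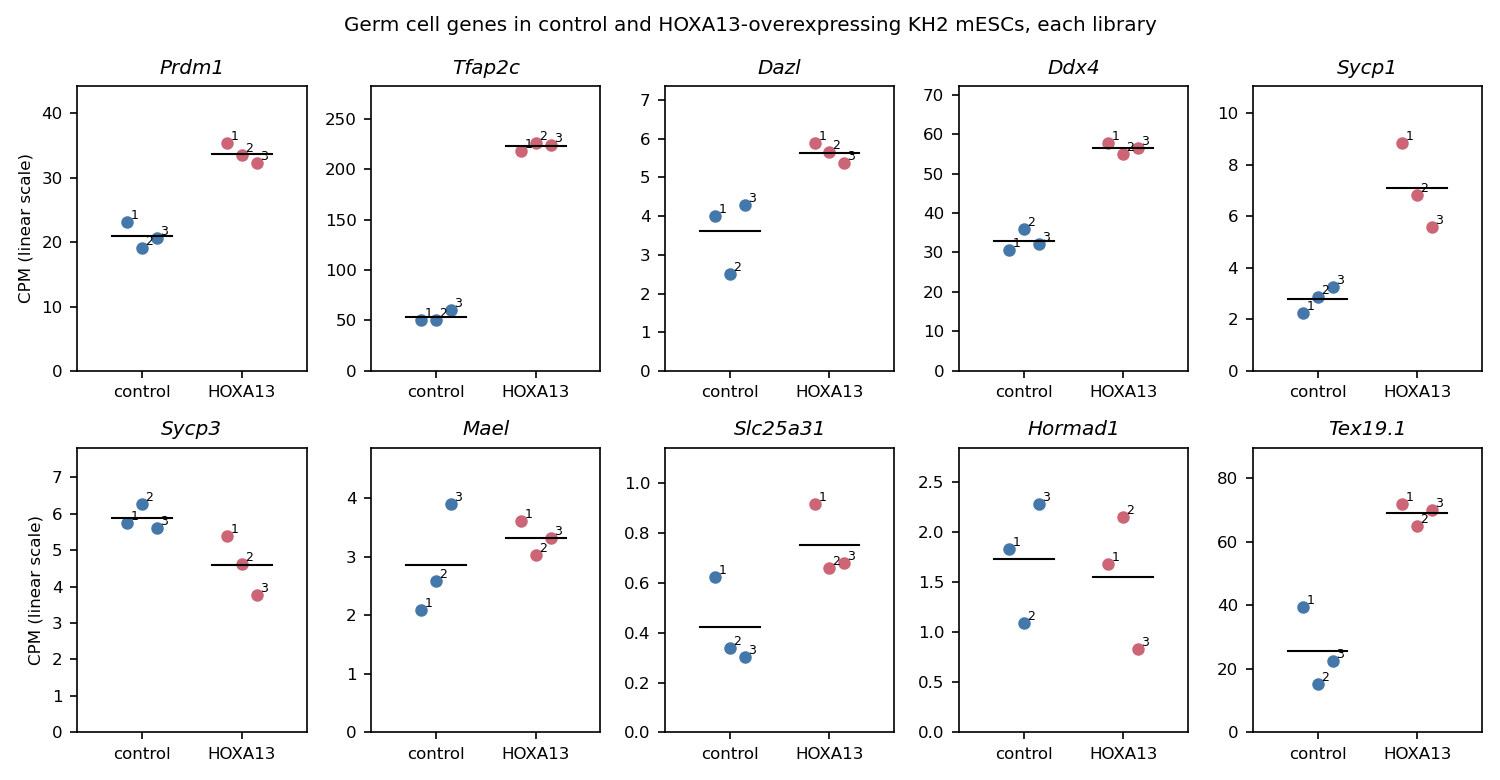
CPM of the 10 germ cell genes in each library on linear axes that start at 0, with control libraries in blue and *HOXA13* libraries in red, replicate numbers beside the points and the group mean as a bar. The *HOXA13* libraries lie above every control library for *Prdm1*, *Tfap2c*, *Dazl*, *Ddx4*, *Sycp1*, *Slc25a31* and *Tex19.1*, and below them for *Sycp3*.

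Both transcription factor genes among the 10, *Tfap2c* and *Prdm1*, rose. *Tfap2c* (chr2:172375093-172384122 in mm9, as all gene positions that follow) encodes an AP-2 transcription factor needed for primordial germ cells and also used in trophoblast. It lay at 50.1, 50.4 and 60.8 CPM in control libraries 1 to 3 and at 218, 226 and 224 CPM in *HOXA13* libraries 1 to 3. The groups were far apart and the *HOXA13* libraries nearly level. The mean went from 53.8 ± 6.12 to 223 ± 4.29 CPM (SD, n = 3 each), a log2 fold change of 2.05 (SE 0.09, 95% interval 1.85 to 2.25, edgeR adjusted p = 8.21e-06). *Prdm1* (chr10:44156983-44248307) encodes BLIMP1, the repressor that shuts off the somatic program in primordial germ cells. It lay at 23.1, 19.0 and 20.6 CPM in control and 35.4, 33.5 and 32.4 CPM in *HOXA13* libraries, again with no overlap. Its mean went from 20.9 ± 2.03 to 33.7 ± 1.54 CPM (SD, n = 3 each), a log2 fold change of 0.69 (SE 0.10, 95% interval 0.47 to 0.91, edgeR adjusted p = 0.00169). The rise of *Tfap2c* was thus 4.14-fold and that of *Prdm1* 1.61-fold, and their 95% intervals did not meet.

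Of the germ cell RNA-binding proteins, *Ddx4* passed the test and *Dazl* did not. *Ddx4* (chr13:113388541-113442518), the mouse Vasa helicase of the germ granule, lay at 30.7, 35.9 and 32.1 CPM in control and 57.7, 55.0 and 56.4 CPM in *HOXA13* libraries. Replicates of each group lay close together and the groups did not overlap. The mean went from 32.9 ± 2.73 to 56.4 ± 1.34 CPM (SD, n = 3 each), a log2 fold change of 0.78 (SE 0.08, 95% interval 0.59 to 0.97, edgeR adjusted p = 0.000442). *Dazl* (chr17:50418719-50432924), which binds messenger RNAs and licenses germ cells for their sexual fate, lay at 4.01, 2.51 and 4.29 CPM in control and 5.89, 5.67 and 5.37 CPM in *HOXA13* libraries. All *HOXA13* libraries were above all controls, with control library 2 lowest. The log2 fold change of *Dazl* was 0.63 (SE 0.22, 95% interval 0.14 to 1.13, edgeR adjusted p = 0.0618), and of 15 alternatives only leaving out control replicate 1 brought it past the threshold (adjusted p = 0.0436, with 0.0436 to 0.180 over the alternatives).

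Among the 10 genes 3 act on meiotic chromosomes, and of these *Sycp1* passed. *Sycp1* (chr3:102622422-102740023), the transverse filament of the synaptonemal complex that zips paired chromosomes together, lay at 2.23, 2.85 and 3.23 CPM in control and 8.83, 6.83 and 5.59 CPM in *HOXA13* libraries. Although the *HOXA13* libraries were spread, the lowest of them exceeded the highest control. The mean went from 2.77 ± 0.507 to 7.08 ± 1.64 CPM (SD, n = 3 each), a log2 fold change of 1.36 (SE 0.23, 95% interval 0.84 to 1.89, edgeR adjusted p = 0.00392). *Sycp3* (chr10:87922314-87935981), a protein of the chromosome axis in the same complex, lay at 5.75, 6.25 and 5.61 CPM in control and 5.38, 4.62 and 3.78 CPM in *HOXA13* libraries. Here all *HOXA13* libraries were below all controls, but the log2 fold change of -0.34 (SE 0.18, 95% interval -0.75 to 0.06) did not pass (edgeR adjusted p = 0.186). *Hormad1* (chr3:95363599-95391593), which marks unpaired chromosome axes, lay at 1.83, 1.09 and 2.27 CPM in control and 1.68, 2.15 and 0.832 CPM in *HOXA13* libraries. These groups overlapped, with a log2 fold change of -0.15 (SE 0.38, 95% interval -1.03 to 0.74, edgeR adjusted p = 0.812), whose sign differed under 2 of the 15 alternatives. The 95% intervals of *Sycp1* and *Sycp3* did not meet, although both encode parts of the synaptonemal complex.

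*Sycp3* is the only one of the 10 genes that overlaps another annotated gene. Of its 1264 exonic bases, 660 overlap exons of *Chpt1*, an enzyme of phosphatidylcholine synthesis on the opposite strand. The libraries were stranded but the strand setting of the counting is not given in the sources used here, so that the 2 genes' reads may not be fully separated. *Chpt1* rose from 11.2 ± 1.38 to 17.2 ± 0.707 CPM (SD, n = 3 each, edgeR adjusted p = 0.00698). For each 100 *Chpt1* counts there were 59.7, 53.8 and 45.7 *Sycp3* counts in control and 32.6, 26.9 and 21.1 in *HOXA13* libraries. The part of shared reads in the values of *Sycp3* was not tested.

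Of the remaining 3 genes, with roles in transposon defence (*Tex19.1*, *Mael*) and germ cell energy supply (*Slc25a31*), *Tex19.1* passed. *Tex19.1* (chr11:121007457-121009633), a mammal-specific gene that restrains retrotransposons and is active in pluripotent and germ cells, lay at 39.6, 15.2 and 22.6 CPM in control and 71.7, 64.9 and 70.1 CPM in *HOXA13* libraries. The control libraries varied more for this gene than for any other of the 10 (coefficient of variation 48.5%), and the *HOXA13* libraries little (5.11%), with no overlap. The mean went from 25.8 ± 12.5 to 68.9 ± 3.52 CPM (SD, n = 3 each), a log2 fold change of 1.40 (SE 0.29, 95% interval 0.75 to 2.06, edgeR adjusted p = 0.00855). Control libraries 1, 3 and 2, in that order from high to low *Tex19.1*, had the same order of summed mesendoderm markers, while the *HOXA13* libraries had the highest *Tex19.1* and the lowest mesendoderm markers. Its paralog *Tex19.2*, which could share reads with it, was counted only 4 to 37 times in control and 10 to 31 times in *HOXA13* libraries, against 223 to 887 and 927 to 1412 times for *Tex19.1*. *Mael* (chr1:168131516-168168875), a protein of the piRNA pathway, lay at 2.10, 2.58 and 3.89 CPM in control and 3.61, 3.03 and 3.33 CPM in *HOXA13* libraries, which overlapped. Its log2 fold change was 0.22 (SE 0.26, 95% interval -0.38 to 0.81, edgeR adjusted p = 0.576) on a chromosome whose 771 tested genes had a median of 0.37 with 55.9% called, and it was -0.16 (adjusted p = 0.692) with each chromosome centred. *Slc25a31* (chr3:40512777-40529515), the ADP/ATP carrier of male germ cells, was the lowest of the genes, counted 14, 5 and 6 times in control and 18, 12 and 9 times in *HOXA13* libraries. The CPM of *Slc25a31* were 0.624, 0.340 and 0.303 against 0.914, 0.661 and 0.680, without overlap but not past the threshold (log2 fold change 0.80, SE 0.39, 95% interval -0.09 to 1.69, edgeR adjusted p = 0.165). The somatic ADP/ATP carriers *Slc25a4* and *Slc25a5* rose by 0.61 and 0.77 on the log2 scale (edgeR adjusted p = 0.0005 and 7.68e-05), from control levels of 146 to 166 and 246 to 254 CPM per kb of exon, against 0.187 to 0.384 for *Slc25a31*.

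**Figure D3:**
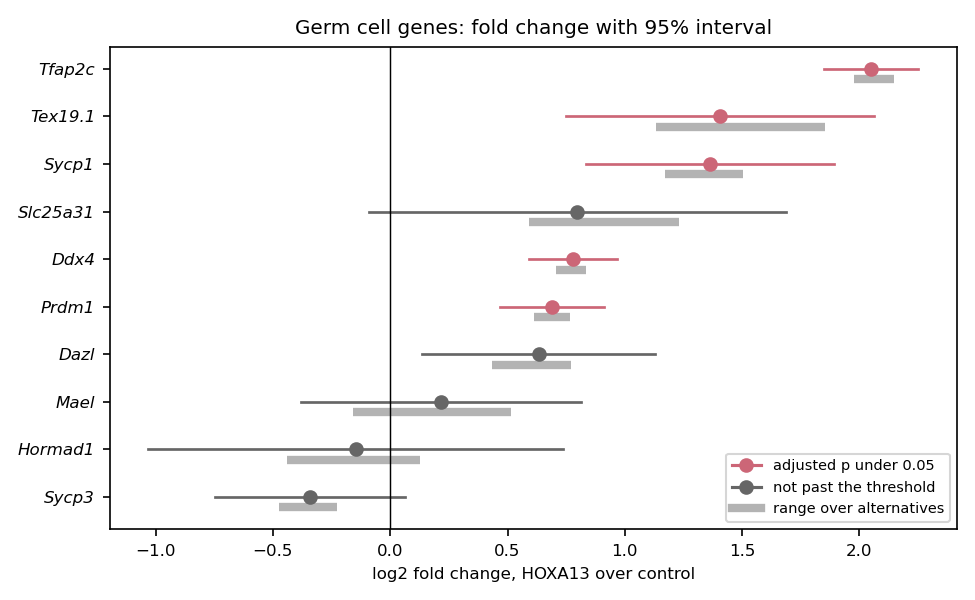
Log2 fold change of each germ cell gene, *HOXA13* over control, with edgeR's 95% interval (thin line) and the range over the alternatives (grey bar). The 5 genes past the threshold (red) lie between 0.69 and 2.05, and the intervals of *Slc25a31*, *Mael*, *Hormad1* and *Sycp3* include 0.

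Levels were compared between genes per length. Per kilobase of exon, the highest control means were those of *Tfap2c* at 14.6 ± 1.66, *Tex19.1* at 13.8 ± 6.68 and *Ddx4* at 11.5 ± 0.958 CPM per kb (SD, n = 3 each), and the range of *Tex19.1* took in those of both others. *Sycp3* at 4.64 ± 0.267 and *Prdm1* at 3.81 ± 0.369 CPM per kb followed, with ranges apart from each other and from their neighbours. *Mael* at 1.85 (1.36 to 2.52 over the libraries), *Dazl* at 1.20 ± 0.318, *Hormad1* at 1.00 ± 0.347 and *Sycp1* at 0.800 ± 0.146 CPM per kb followed, each overlapping its neighbours among these 4, and *Slc25a31* was last at 0.260 ± 0.108, below all of them without overlap. In *HOXA13* cells *Tfap2c* at 60.5 ± 1.17, *Tex19.1* at 36.8 ± 1.88 and *Ddx4* at 19.8 ± 0.472 CPM per kb no longer overlapped. *Prdm1* at 6.14 ± 0.280 then stood above *Sycp3* at 3.64 ± 0.634, and *Sycp1* at 2.04 ± 0.472 above *Dazl* at 1.87 ± 0.0871, the latter pair within their spread. Summed over the 10 genes, CPM were 160, 136 and 156 in control and 409, 402 and 403 in *HOXA13* libraries. *Tfap2c* alone made up 31.3% to 39.1% of that sum in control and 53.3% to 56.2% in *HOXA13* libraries, and without it the sums were 85.8 to 110 and 176 to 191 CPM.

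The wider primordial germ cell program moved in both directions. Of 13 further primordial germ cell genes, all tested, 5 rose, 3 fell and 5 did not pass, against 14.4% higher and 13.3% lower among all tested genes, with a median log2 fold change of 0.12. *Prdm14*, the partner of *Prdm1* and *Tfap2c* in germ cell specification, lay at 9.54, 15.8 and 8.08 CPM in control and 19.3, 22.3 and 24.3 CPM in *HOXA13* libraries (log2 fold change 1.00, SE 0.23, edgeR adjusted p = 0.0150). *Prdm1*, *Tfap2c* and *Prdm14* were each higher in every *HOXA13* library than in any control. Also higher were *Dppa3* (Stella, 1.17, adjusted p = 0.000395), *Nanos3*, which protects migrating germ cells (1.09, adjusted p = 0.0122), the receptor *Kit* (0.95, adjusted p = 0.00662) and the surface protein gene *Ifitm1* (1.23, adjusted p = 0.0108), all by edgeR. *T* (Brachyury), which acts upstream of *Prdm1* in nascent germ cells and is a mesendoderm marker too, was 181, 10.5 and 85.2 CPM in control and 1.37, 2.48 and 2.27 CPM in *HOXA13* libraries. It fell by 5.53 on the log2 scale (SE 0.99, edgeR adjusted p = 0.00519), from control levels that differed widely. The call on *T* was lost with limma-voom (adjusted p = 0.111). *Lin28a*, an RNA-binding protein that blocks let-7 processing, fell by 1.16 and *Ifitm3* (Fragilis) by 0.46 on the log2 scale (edgeR adjusted p = 1.71e-05 and 0.00698). Calls on *Dppa3*, *Kit*, *Ifitm3* and *Lin28a* held under all 15 alternatives, while those on *Prdm14* and *Nanos3* were lost without *HOXA13* replicate 2 or 3 and that on *Ifitm1* without *HOXA13* replicate 1.

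**Figure D4:**
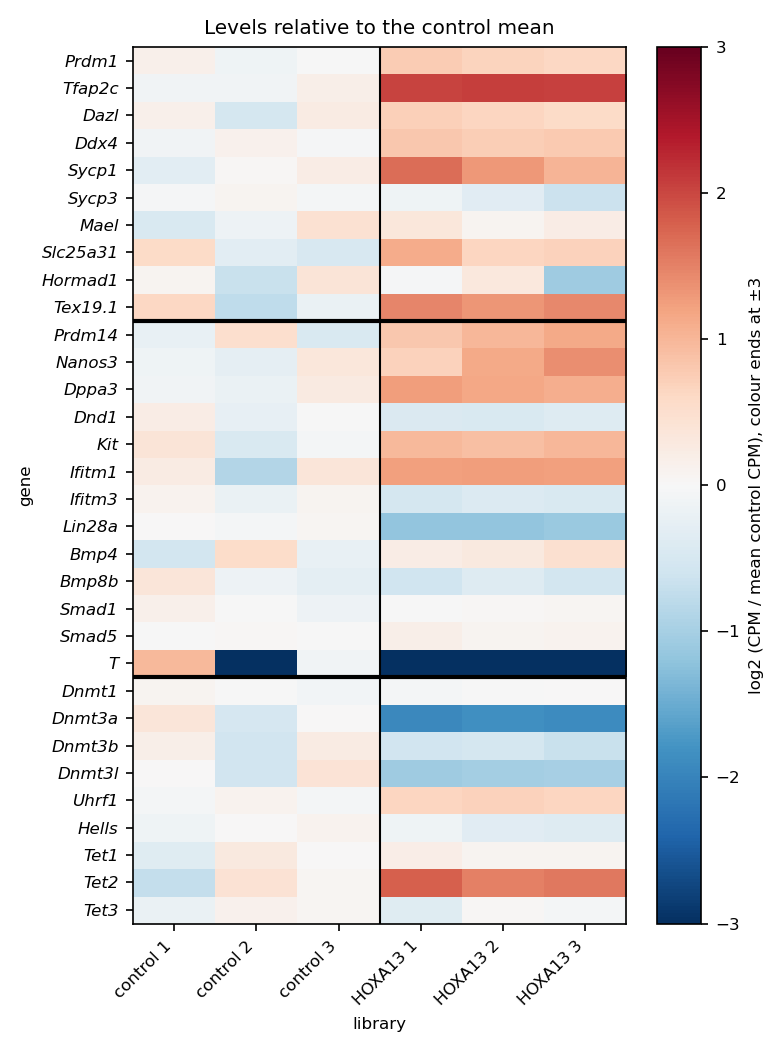
Log2 of CPM over the control mean in each library for the 10 germ cell genes (top), 13 primordial germ cell genes (middle) and the DNA methylation and Tet genes (bottom), with red higher and blue lower and the colour scale ending at 3 in either direction. *Tfap2c*, *Tex19.1*, *Tet2* and *Dppa3* are red in all 3 *HOXA13* libraries, *T*, *Lin28a* and *Dnmt3a* are blue in them, and *T* is also low in control library 2.

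Of 53 other germ cell and meiosis genes, 37 were expressed highly enough to be tested; 10 rose (27.0%), 5 fell (13.5%) and 22 did not pass, against 14.4% and 13.3% of all tested genes, with a median log2 fold change of 0.11. The counts were 4 higher and 3 lower without *HOXA13* replicate 1, 5 and 3 without *HOXA13* replicate 2, 6 and 2 without *HOXA13* replicate 3, 6 and 4 without control replicate 3, and 11 and 9 without control replicate 2. The largest increases were those of *Taf7l*, a germ cell subunit of the transcription machinery (1.67, edgeR adjusted p = 0.0146), *Rnf17*, a Tudor protein (1.63, adjusted p = 0.000635), *Boll*, of the *Dazl* family (1.44, adjusted p = 0.0219), *Piwil2*, which binds piRNAs (1.35, adjusted p = 0.000113), *Tdrd1*, a partner of PIWI proteins (0.83, adjusted p = 0.00904), and *Stk31* (0.81, adjusted p = 0.0479). *Rnf17* lay at 36.1, 62.9 and 40.8 CPM in control and 153, 140 and 139 CPM in *HOXA13* libraries, the groups well apart. *Rnf17* and *Piwil2* lie on chromosome 14, where the median over tested genes was 0.26 on the log2 scale, and *Boll* and *Prdm14* on chromosome 1 with its median of 0.37. *Taf7l* and *Boll* were low, at 0.896 ± 0.509 and 0.577 ± 0.317 CPM in control cells (SD, n = 3). The genes that fell were *Rpl10l*, a testis ribosomal protein (-2.17, adjusted p = 0.00279), *Gm1564*, now named *Meioc*, which holds germ cells in meiotic prophase (-2.15, adjusted p = 0.000787), *Sohlh2* (-1.12, adjusted p = 0.0122), *Pld6* (-0.90, adjusted p = 0.0291) and *Hsf2bp* (-0.39, adjusted p = 0.0324), all by edgeR. Calls on *Rnf17*, *Piwil2*, *Tdrd1*, *Rpl10l* and *Gm1564* held under all 15 alternatives, *Sohlh2* and *Pld6* were called in 13 of 15, *Hsf2bp* in 11 of 15, *Taf7l* in 11 of 14, *Stk31* in 9 of 15 and *Boll* in 9 of 14, not with each chromosome centred. Named after their values were seen, *Syce1*, a synaptonemal complex gene (0.75, edgeR adjusted p = 0.00836), and *Stag3*, a meiotic cohesin gene (0.68, adjusted p = 0.00944), were also among those that rose. Of 9 markers of later germ cells, 2 were tested, *Zp3* and *Gdf9*, and 0 were called by edgeR, with 1 lower and 1 higher at an unadjusted p under 0.05; DESeq2 called 1 lower and limma-voom 0. Under edgeR 1 was also called lower with library size alone, with no filter, with 10 counts in every library, with the replicate block and without control replicate 2, and 1 higher and 1 lower with each chromosome centred. Of the list 3 (*Prm1*, *Prm2* and *Tnp1*) had no count in any library.

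The genes that keep germ cell genes silent were read in the same libraries. Of 29 such genes, all tested, 7 rose and 7 fell (24.1% each, against 14.4% and 13.3% of all tested genes), with a median log2 fold change of 0.09. Of the 6 DNA methylation genes 4 fell and 1 rose. *Dnmt3a*, a de novo methyltransferase, lay at 237, 129 and 184 CPM in control and 47.7, 50.9 and 49.6 CPM in *HOXA13* libraries, a fold of 0.269 (log2 fold change -1.89, SE 0.19, edgeR adjusted p = 0.000393). *Dnmt3l*, its catalytically inactive partner, fell by 1.02 on the log2 scale (edgeR adjusted p = 0.00837), *Dnmt3b* by 0.59 (adjusted p = 0.0491, groups overlapping) and the helicase gene *Hells* by 0.28 (adjusted p = 0.0445). *Uhrf1*, which brings the maintenance enzyme to replicated DNA, was higher, at 260, 292 and 260 CPM in control and 424, 434 and 422 CPM in *HOXA13* libraries (log2 fold change 0.66, SE 0.07, edgeR adjusted p = 0.000348). The maintenance methyltransferase *Dnmt1* itself had a log2 fold change of -0.02 (95% interval -0.16 to 0.12, edgeR adjusted p = 0.848). Of the 3 Tet genes, whose enzymes oxidise methylated cytosine, *Tet2* rose from 46.5, 103 and 80.1 CPM to 267, 220 and 229 CPM (log2 fold change 1.64, SE 0.25, edgeR adjusted p = 0.00231). Among control libraries *Dnmt3a* had the order of the summed mesendoderm markers and *Tet2* the reverse order. The *HOXA13* libraries had the lowest mesendoderm markers, the lowest *Dnmt3a* and the highest *Tet2*. The part of this marker difference in either gene was not tested. Calls on *Dnmt3a*, *Uhrf1* and *Tet2* held under all 15 alternatives and that on *Dnmt3b* in 7, and 2 of the DNA methylation genes fell in place of 4 without control replicate 3, without any one *HOXA13* replicate or with the replicate block.

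Of the 14 PRC1.6 genes 4 rose and 2 fell, against 14.4% higher and 13.3% lower among all tested genes. The ubiquitin ligase gene *Rnf2* rose by 0.70 on the log2 scale (edgeR adjusted p = 0.00670), but it lies on chromosome 1 and its value was 0.34 with each chromosome centred (adjusted p = 0.0275), near those of *Ring1* (0.40) and *Rybp* (0.33). *Ring1* (0.39, adjusted p = 0.0293), *Rybp* (0.35, adjusted p = 0.0171) and *Hdac2* (0.30, adjusted p = 0.0208) were also higher. Without control replicate 3 the counts were 1 higher and 2 lower, without *HOXA13* replicate 1 or 3 they were 1 and 1, and without *HOXA13* replicate 2 they were 2 and 1. *Rybp* and *E2f6* were called in 12 of the 15 alternatives and *Ring1* and *Hdac2* in 10, and *Rnf2* and *L3mbtl2* in all 15. The genes of this list that fell were *L3mbtl2* (-0.39, adjusted p = 0.00332) and *E2f6* (-0.33, adjusted p = 0.0250). *Mga* (-0.15, adjusted p = 0.207), *Max* (0.20, adjusted p = 0.0908) and *Pcgf6* (-0.18, adjusted p = 0.0905) did not pass, all by edgeR. Of the 6 histone H3 lysine 9 methylation genes, *Setdb1* rose by 0.41 and *Ehmt1* fell by 0.52 on the log2 scale (edgeR adjusted p = 0.00137 and 0.00276). Transcript levels of these genes are not enzyme activity or promoter occupancy, neither of which was measured.

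**Figure D5:**
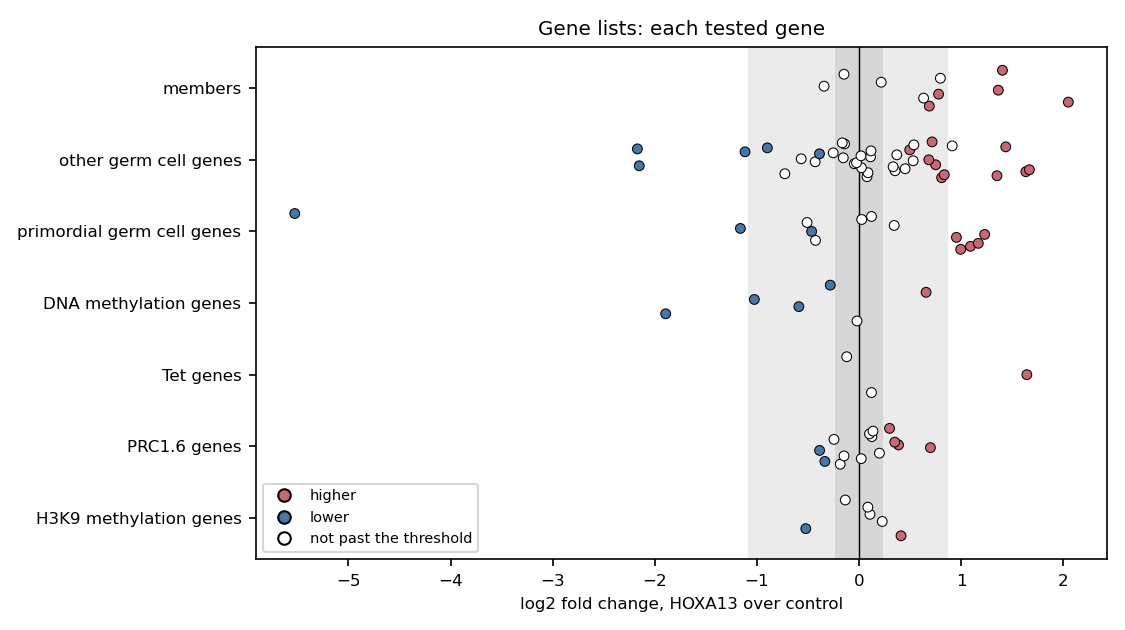
Log2 fold change, *HOXA13* over control, of each tested gene in the germ cell lists, the lists of their repressors and the Tet genes. Red and blue points passed the threshold and white points did not. The dark band holds the middle of all tested genes (25th to 75th percentile, -0.23 to 0.23) and the light band the 5th to 95th percentile (-1.07 to 0.87); *Tfap2c*, *Tex19.1* and *Sycp1* lie above the light band, as do *Taf7l*, *Tet2*, *Rnf17*, *Dppa3* and others of the other lists, and *T*, *Dnmt3a*, *Rpl10l*, *Gm1564*, *Lin28a* and *Sohlh2* lie below it.

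Markers of other cells were set beside these values. Pluripotent cell markers summed to 2548 to 3526 CPM in control and 3617 to 3735 CPM in *HOXA13* libraries. Of the 10 markers 5 were higher and 1 lower, against 14.4% and 13.3% of all tested genes. *Klf4* (log2 fold change 1.14), *Fbxo15* (1.07), *Esrrb* (0.78), *Nanog* (0.57) and *Sox2* (0.54) were higher and *Tdgf1* (-1.09) was lower. With DESeq2 or without control replicate 3, 3 of the 10 were higher, and without any one *HOXA13* replicate 2 were. Of 12 fibroblast markers, which report the feeder cells, 0 were called by edgeR, 1 was higher at an unadjusted p under 0.05, DESeq2 called 1 higher and limma-voom 0, and their sums overlapped (3925 to 6088 against 5711 to 7134 CPM). With the replicate block or without control replicate 2, edgeR called 2 of them higher, without control replicate 1 it called 1 higher and 1 lower, and with each chromosome centred 1 lower. *Tfap2c* is also a trophoblast gene, and of 7 tested trophoblast markers 4 rose, *Gata3*, *Ascl2*, *Krt7* and *Esx1*, and *Eomes* fell, against 14.4% higher and 13.3% lower among all tested genes. *Hand1* (log2 fold change -2.06, edgeR adjusted p = 0.110) and *Cdx2* (0.08, adjusted p = 0.933) did not pass. The call on *Eomes* held in 10 of the 15 alternatives and was lost with limma-voom, without control replicate 3 and without any one *HOXA13* replicate. Of 2 markers too low to be tested, *Elf5* was counted 0 to 2 times in control and 5 to 8 times in *HOXA13* libraries, without overlap, and *Tpbpa* had no count. The sums of all 9 trophoblast markers overlapped (28.3 to 102 against 48.5 to 50.3 CPM), and they mix markers of both directions, with *Eomes*, which is a mesendoderm marker too, the largest part of each control sum. Without *Eomes*, a sum added after the values were seen, they were 10.9 to 21.7 CPM in control and 35.9 to 36.8 CPM in *HOXA13* libraries, without overlap. Markers of 2-cell-like cells were at 3 counts or fewer in every library for 7 of the 8 in the tables, and none was tested. The part of any of these cell types in the rise of the germ cell genes was not tested.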

How the data were processed

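Stranded libraries of polyadenylated RNA from 6 non-differentiated KH2 mESC cultures were sequenced with reads of 75 base-pairs. The authors aligned these to mm9 and obtained counts per gene (TopHat2 2.0.14 and HTSeq 0.6.1p1 in the submitters' processing notes), and deposited whole-number counts without normalization, 1 table per library with 24393 features. The annotation and strand setting are not given in the sources used here. Groups and replicate numbers came from the sample titles.

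Counts were filtered with filterByExpr (minimum count 10, minimum total 15), normalized with TMM and tested with edgeR 4.0.16 (glmQLFit, glmQLFTest, R 4.3.3) without covariates at a Benjamini-Hochberg adjusted p under 0.05 over 13846 genes. Log2 fold changes use edgeR's prior count of 0.125, and standard errors were derived from it and the F statistic. Levels per kb use union exon lengths. Alternatives used DESeq2's RLE normalization or no normalization factors, no filter or a stricter one (10 counts or more in each library), a replicate block, robust dispersions, DESeq2 1.42.0, limma-voom (limma 3.58.1), centring each chromosome, and leaving out each library. The code was first tested on simulated data.

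Gene positions are from GENCODE for NCBIM37 (mm9), which placed 22054 features. Promoter windows of 300 bases are from RefSeq, GRCm38.p6, 1 per gene, with tested genes matched by current or older symbol. The 10 genes and all lists were chosen with earlier results of these data known, so that counts over them are descriptions. Besides the 10 genes, the text names the list genes past the threshold, or the 6 with the largest change where more pass in 1 direction. *Dnmt1*, *Mga*, *Max*, *Pcgf6*, *Chpt1*, *Tex19.2*, the somatic ADP/ATP carriers and the marker genes were named for their role, with their values seen. Figures were drawn with matplotlib 3.10.9.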

Additional observations from a re-analysis of the deposited data

How the results depend on the processing

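*Prdm1*, *Tfap2c*, *Ddx4*, *Sycp1* and *Tex19.1* were called higher under all 15 alternatives, with log2 fold changes of 0.61 to 0.77, 1.98 to 2.15, 0.71 to 0.84, 1.17 to 1.5 and 1.13 to 1.85, and with a highest adjusted p of 0.0495 for *Tex19.1*. *Dazl* was called in 1 of 15 (without control replicate 1), and *Sycp3*, *Mael*, *Slc25a31* and *Hormad1* in none; *Slc25a31* could not be tested at 10 counts in every library. The number of the 10 genes called was 5 to 6 higher and 0 lower. Leaving out 1 library gave 2038 to 5007 calls over all genes (3836 with all 6). It gave 7 to 20 for other germ cell genes (15) and 8 to 17 for repressor and Tet genes together (14). The lowest values came with 2 *HOXA13* libraries. Without replicate 1, 2 and 3 there were 2038, 2104 and 2311 calls over all genes. Other germ cell genes then gave 7, 8 and 8 calls, and repressor and Tet genes 8, 9 and 8. Repressor and Tet genes also gave only 9 calls without control replicate 3. All these fits rest on fewer samples. Primordial germ cell genes gave 6 to 10 calls (8). With library size alone the median of all genes was -0.07, and 1576 genes were higher and 2500 lower, against 1994 and 1842 with TMM. Same-numbered control and *HOXA13* libraries did not deviate together (r -0.02, -0.05 and 0.02), so that they share only a number. With the replicate number as a block, 3172 genes were called over all genes, with 5 of the 10 germ cell genes higher and 0 lower. The same fit called 13 other germ cell genes, 8 primordial germ cell genes and 11 repressor and Tet genes. Depth limits *Slc25a31* most, at 5 to 18 counts per library, and *Sycp3*, with a 95% interval of -0.75 to 0.06, was not resolved in sign.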

Other observations

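Cell type genes outside the germ line also differed at low levels. *Gata6*, a primitive endoderm regulator, lay at 3.92, 2.85 and 2.58 CPM in control and 10.4, 11.8 and 10.7 CPM in *HOXA13* libraries (log2 fold change 1.80, edgeR adjusted p = 0.000391). *Sox7* lay at 1.07, 3.87 and 0.859 CPM in control and 7.57, 8.20 and 8.69 CPM in *HOXA13* libraries. It rose by 2.14 on the log2 scale (edgeR adjusted p = 0.0126), with 1.78 to 3.05 over the alternatives. *Pdgfra*, a marker of the same lineage, fell by 0.80 on the log2 scale (edgeR adjusted p = 0.0192). *Esx1*, an X-linked trophoblast gene, lay at 1.92, 0.951 and 0.657 CPM in control and 6.09, 8.15 and 6.27 CPM in *HOXA13* libraries (fold change 2.5 on the log2 scale, adjusted p = 0.00169), and *Gata3* at 4.75 to 5.13 and 13.8 to 15.4 CPM (1.57, adjusted p = 8.86e-05). Of the 8 tested primitive endoderm markers 2 rose and 1 fell, against 14.4% higher and 13.3% lower among all tested genes, and the median log2 fold change of the 8 was -0.43, with 5 negative. The counts were 2 higher and 4 lower without control replicate 2, 2 and 0 without control replicate 3, 1 and 0 without *HOXA13* replicate 1 or 2, 1 and 1 without *HOXA13* replicate 3, and 2 and 2 with each chromosome centred. Calls on *Gata6*, *Esx1* and *Gata3* held under all 15 alternatives and those on *Sox7* and *Pdgfra* under 12 each.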
